A study of Mus musculus with 24 samples.

Results

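Labelled RNA was followed through 1 h of metabolic labelling in unmodified mouse embryonic stem cells. The 8 libraries described are the WT libraries of a series of 24, chosen by genotype label, 2 each at 10, 20, 40 and 60 min of labelling, and the other 16 libraries of the series are not described. The cells were E14TG2a, a mouse embryonic stem cell line, labelled WT and carrying no engineered allele in the labels. All 8 cultures grew in DMEM with 15% serum, LIF at 1000 U/ml, the MEK inhibitor PD0325901 at 1 µM and the GSK3 inhibitor CHIR99021 at 3 µM, so every time point is a measurement under MEK and GSK3 inhibition. EU (5-ethynyl uridine) was given at 1 mM for 10, 20, 40 or 60 min, each sample received an equal amount of Drosophila RNA labelled with EU, and a click reaction on the EU pulled out the labelled RNA, which was sequenced with a stranded total RNA kit. It is 1 cell line, and the labels do not say whether the libraries of a time came from separate cultures, so the p-values speak of the spread among these 8 libraries alone, which may be technical.

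EU enters RNA while RNA polymerases are elongating. A pool of labelled RNA therefore grows during labelling as long as more is made than is lost, and an RNA with a fast turnover is known to approach its ceiling sooner than a stable one. Total RNA captured after short labelling holds unspliced and spliced transcripts, RNA of repeats in introns, and mitochondrial RNA, so repeat reads need not come from promoters of the repeats themselves.

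Gene reads numbered 3771433 to 21256822 in a library, repeat reads 4432944 to 19792357 and spike-in reads 9825 to 23382, and 27245 to 33799 genes had at least 1 read. Mitochondrially encoded genes took 1.32 to 2.21% of gene reads and the 100 genes with most reads 12.8 to 14.7%. All 28 naive pluripotency markers had a mean level of at least 10, with a summed level of 33184 to 229234 over the libraries, while 6 of 12 fibroblast markers did, with a sum of 6226 to 33689.6 led by Fn1 and no reads matched for S100a4. The same held for 10 of 17 endoderm and mesoderm markers, with a sum of 2017 to 11206 led by Col4a1, and 7 of 9 neural markers, with a sum of 776 to 4533 led by Nes. A level is the number of reads scaled to 11912.5 spike-in reads, and it is not corrected for gene length. The library of a time with more spike-in reads is called A and the other B. At 60 min 2841 genes, holding 69.0% of that time's gene reads, had only their sum over both libraries recovered with certainty, and for these genes a single mean level is given after 60 min.

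Captured RNA grew with labelling time, and the libraries of 40 and 60 min overlapped. Gene reads per spike-in read were 386 ± 74.3 after 10 min, 711 ± 42.5 after 20 min, 1605 ± 477 after 40 min and 1825 ± 358 after 60 min (mean ± SD, n = 2 each). In single libraries A and B the values were 439 and 333 after 10 min, 741 and 681 after 20 min, 1268 and 1942 after 40 min, and 1572 and 2079 after 60 min, so the libraries of 40 and 60 min overlapped while those of the earlier times did not. The small step between 40 and 60 min rests on library B of 40 min, since both 60 min libraries lay above library A of 40 min. Repeat reads per spike-in read were 453 ± 85.7, 770 ± 14.0, 1583 ± 476 and 1690 ± 347 in the same order. The gene total rose by 0.91 ± 0.10 (SE) on the log2 scale per doubling of labelling minutes, against 1 for growth in proportion to time, and the repeat total by 0.78 ± 0.10 (exact two-sided permutation p = 0.0012 for each, 8 libraries, adjusted p = 0.0012 over 3 relations). More labelled cells and more labelled RNA per cell cannot be told apart in these bulk samples.

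Gene reads gained on repeat reads at every step. The ratio of gene to repeat reads within a library was 0.853 ± 0.0027 after 10 min, 0.923 ± 0.0384 after 20 min, 1.01 ± 0.0038 after 40 min and 1.08 ± 0.0097 after 60 min (n = 2 each). Libraries A and B had ratios of 0.855 and 0.851, then 0.951 and 0.896, then 1.017 and 1.011, and last 1.088 and 1.074, with no overlap between neighbouring times. Its log2 rose by 0.13 ± 0.01 (SE) per doubling (exact two-sided permutation p = 0.0004, the smallest that the 2520 arrangements of the libraries can give; adjusted p = 0.0012). This ratio needs no spike-in, but the split of the 60 min gene total between both libraries rests largely on the median ratio of the pair.

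**Figure D1:**
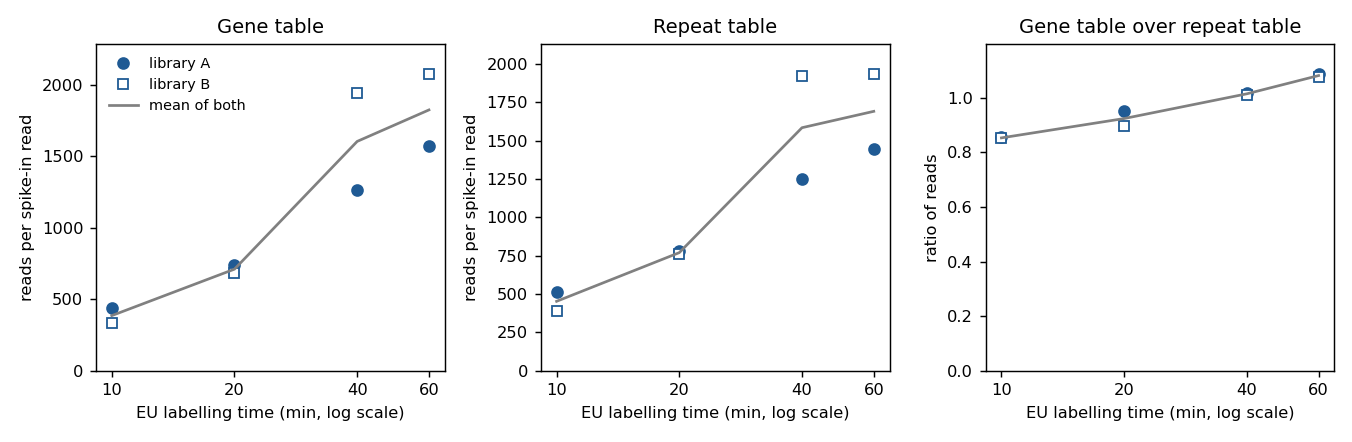
Reads of the gene table and of the repeat table per spike-in read, and their ratio, against labelling time in minutes on a log scale, for library A (filled circles) and B (open squares) of each time, with the mean as a line. Gene totals run from 333 to 2079 and the libraries of 40 and 60 min overlap, while the ratio goes up at each time from 0.851 in the lowest 10 min library to 1.088 in the highest 60 min library.

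The median gene behaved as the totals did. Its level was 54.0 and 41.1 after 10 min, 95.1 and 87.5 after 20 min, 142 and 221 after 40 min, and 166 and 219 after 60 min in libraries A and B. The median of all gene slopes on the spike-in scale was 0.85 log2 units per doubling of minutes, and the medians of the single steps were 0.93 for 20 against 10 min, 1.02 for 40 against 20 min and 0.13 for 60 against 40 min, where library A of 40 min again lay below both 60 min libraries. Among 21894 genes tested with limma, 20873 (95.3%) rose on the spike-in scale, 2 fell (0.00913%) and 1019 did not pass the threshold of adjusted p 0.05. The 2 that fell were the histone genes Hist1h2ac and Hist3h2a, and 47 genes had a spike-in slope below 0.

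Genes parted from the median gene in both directions. Set against the median tested gene in every library, which removes what all genes share, 5608 genes (25.6%) rose over labelling time and 2308 (10.5%) fell behind (limma, Benjamini-Hochberg). From here on a slope is the change of log2(level + 1) per doubling of minutes relative to the median gene, a scale that understates the change of low genes, so a gene that "fell" by this measure usually still gained labelled RNA per spike-in read. The median slope of all tested genes was 0.04, with quartiles at -0.12 and 0.17. Scaled to the gene-read total of each library instead, 2918 genes rose and 4428 fell, so the share of calls that were higher was 39.7% on that scale and 70.8% relative to the median gene. Leaving out library A of 60 min left 2838 higher and 983 lower, and leaving out library B of 60 min left 2856 and 967, in fits that also lose the genes with only a sum.

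Of 14401 protein-coding genes tested, 4945 rose and 1239 fell, with a median slope of 0.07. On the gene-total scale this direction turned, with 2551 higher, 2773 lower and a median of -0.02, beside -0.05 for all genes. Antisense genes had 69 higher and 203 lower of 1250 (median -0.06), long intergenic noncoding RNAs 100 and 101 of 852 (median -0.03), and processed pseudogenes 121 and 209 of 1722 (median -0.07). Reads of antisense genes and of pseudogenes may be shared with their partners, since the counting is not given in the sources used here. By genomic span, protein-coding genes under 5 kb had a median slope of -0.00, with 284 higher and 190 lower of 1681. All longer classes lay close together, with medians of 0.07 from 5 to 20 kb, 0.09 from 20 to 50 kb, 0.09 from 50 to 100 kb, 0.07 from 100 to 300 kb and 0.08 above 300 kb, and on the gene-total scale all these medians were below 0.

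Base composition moved with these slopes. Protein-coding genes were split into 5 equal classes by GC content. In the lowest class, 1649 of 2880 rose and 74 fell, with a median slope of 0.19, while in the highest 442 rose and 441 fell, with a median of -0.03. Across 14401 protein-coding genes the slope had a Spearman rho of -0.38 with GC content, given as a description, since genes share libraries. The 20 min libraries stood apart in this measure: the lowest GC class lay at -0.26 and -0.32 log2 units from the gene means there and the highest at 0.16 and 0.13, against 0.17 and 0.11 for the lowest and -0.02 and 0.01 for the highest after 40 min. The part of base composition in the single results was not tested, and its values are given beside them: after subtraction of a GC curve in each library, 4328 of 21018 genes rose (20.6%) and 2938 fell (14%), and without the 20 min libraries 5230 rose (23.9%) and 1899 fell (8.67%).

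**Figure D2:**
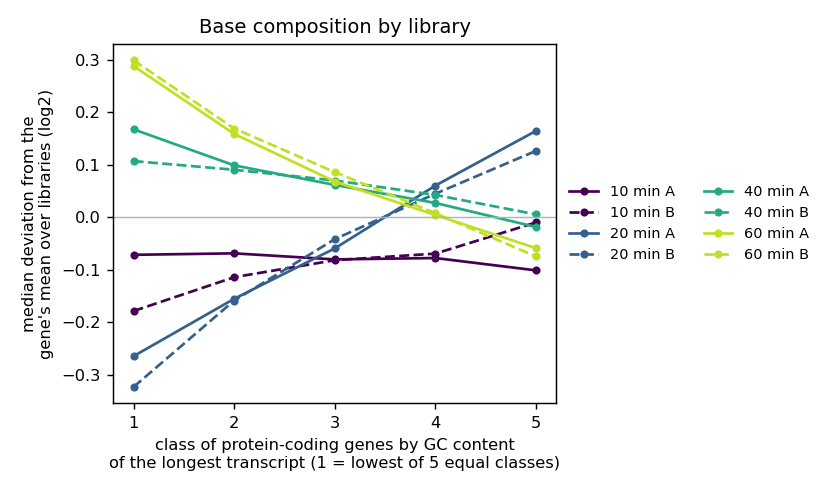
Median deviation of protein-coding genes from their own mean over the 8 libraries (log2, relative to the median gene) against the GC class of the genes (1 is the lowest of 5), 1 line per library. Both 20 min libraries climb with GC content, from -0.26 and -0.32 to 0.16 and 0.13, both 60 min libraries descend, from 0.29 and 0.30 to -0.06 and -0.07, and library A of 10 min is the flattest.

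Replication-dependent histone genes fell behind the median gene more than any other group examined here that had at least 16 genes tested. Their mRNAs are known to end in a stem-loop instead of a poly(A) tail, and to be made in S phase and removed when DNA synthesis stops. The stem-loop is shown because it is the sequence that sets this class apart. Capitals mark the 16 bases of the stem-loop, and 5 bases are printed on each side, from GENCODE M21 transcripts (GRCm38, sense strand), for 6 of the genes that fell most.
Hist3h2a: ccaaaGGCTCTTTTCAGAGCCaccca
Hist1h2ac: ccaaaGGCTCTTTTCAGAGCCcccac
Hist1h2bp: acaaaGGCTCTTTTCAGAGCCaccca
Hist1h3d: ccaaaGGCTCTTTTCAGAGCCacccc
Hist1h3f: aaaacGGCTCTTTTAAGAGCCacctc
Hist1h4i: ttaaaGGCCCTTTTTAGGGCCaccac

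Hist3h2a lies on chromosome 11 and the other 5 on chromosome 13. The motif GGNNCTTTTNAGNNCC, searched on the sense strand of annotated transcripts, was found in 40 of 61 tested histone genes (65.6%) and in 74 of 21018 tested genes with a transcript (0.352%). A match is a description of the letters and not a test of processing. The median slope was -0.49 in 20 genes whose transcript runs at least 100 bases past the stem-loop, with 17 lower, and -0.37 in 20 whose transcript ends sooner, with 14 lower. Across the 40 genes the slope had a Spearman rho of -0.04 with the number of bases after the stem-loop, given as a description. In the 21 genes without the motif the median was -0.25, with 12 lower.

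Of the 61 histone genes tested, 43 fell and none rose, with a median slope of -0.34, against 10.5% of all genes lower. The slope was below 0 in 60 of the 61. With the GC adjustment 40 fell and 1 rose, and without the 20 min libraries 41 fell and none rose. The group's median change was -0.29 for 20 against 10 min, -0.50 for 40 against 20 min and -0.00 for 60 against 40 min. On the spike-in scale the median slope was 0.47, so labelled histone RNA as a group still increased there while the median gene had 0.85. Many histone genes are near-identical copies, and reads that match several of them are uncertain in single genes.

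Hist1h2ac, which encodes a histone H2A, lost labelled RNA outright. Its level in libraries A and B was 165 and 131 after 10 min, 104 and 129 after 20 min, 58.2 and 83.7 after 40 min, and 40.4 and 101 after 60 min. Every library from 20 min on lay below both 10 min libraries, and the slope was -1.30 ± 0.09 (SE; limma, adjusted p = 1.81e-07). Library B of 60 min lay above both 40 min libraries, and the 60 min values rest on 42 and 87 reads. Hist3h2a, another H2A gene, had 88.6 and 62.1 after 10 min, 28.4 and 34.4 after 20 min, 19.7 and 43.6 after 40 min, and 14.4 and 18.6 after 60 min. Its slope was -1.53 ± 0.11 (SE; limma, adjusted p = 1.81e-07), and both 20 min libraries already lay below both 10 min libraries. On the spike-in scale the slopes were -0.49 for Hist1h2ac and -0.72 for Hist3h2a.

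Some other histone genes stood still or dropped per spike-in read while the median gene grew. Hist1h3d, an H3 gene, had 352 and 300.2 after 10 min, 288 and 279 after 20 min, 243 and 369.8 after 40 min, and 288 and 328 after 60 min, a slope of -0.83 and a spike-in slope of -0.02. Hist1h2bp, an H2B gene, had 84.1 and 92.7 after 10 min, 80.5 and 69.8 after 20 min, 53.8 and 57.0 after 40 min, and 51.0 and 68.7 after 60 min. Its slope was -1.06, and its spike-in slope of -0.25 did not pass the threshold. Hist1h4i, an H4 gene, had 295 and 228 after 10 min, 245 and 325 after 20 min, 248 and 409.8 after 40 min, and 275 and 324 after 60 min, with a slope of -0.71. The genes shown, from all 4 core histones, thus held a level after 60 min close to or below that after 10 min. They are among those that fell most, and the 61 histone genes had a median spike-in slope of 0.47. Hist1h3f (-0.73), Hist1h2bg (-0.70), Hist1h2bm (-0.64), Hist1h2bk (-0.58) and Hist1h2ad (-0.89) fell as well.

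**Figure D3:**
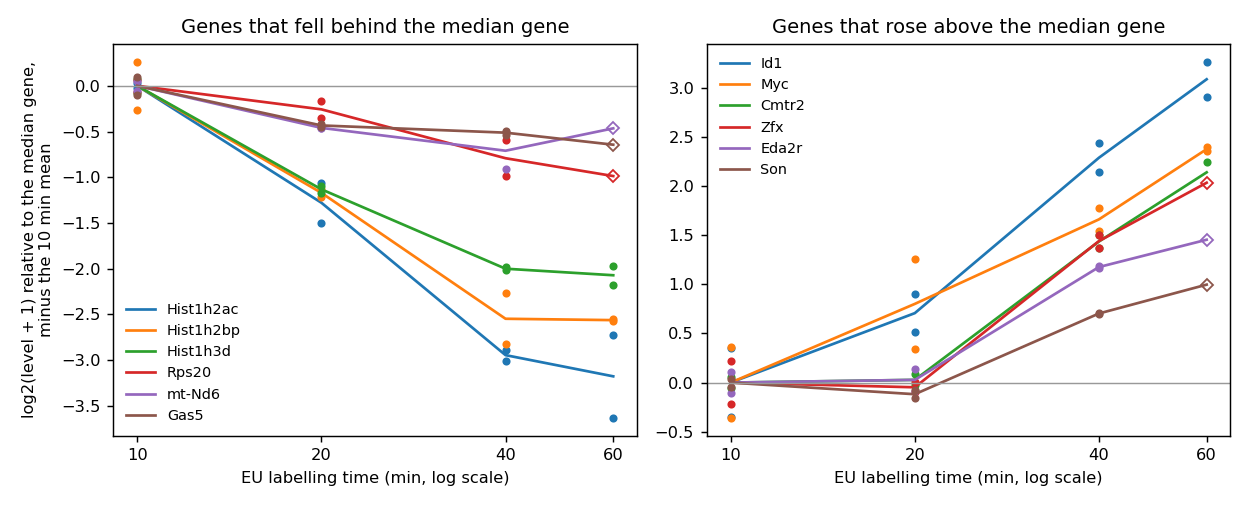
Change of log2(level + 1) relative to the median gene from the 10 min mean, against labelling time in minutes on a log scale, for 6 genes that fell behind and 6 that rose. Dots are single libraries, lines join the means, and open diamonds after 60 min mark genes for which only the sum of both libraries is known. The lowest Hist1h2ac dot and the highest Id1 dot are from 60 min, with slopes of -1.30 and 1.23.

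Outside the histones, the 15 genes with the largest fall by the naming rule included Shcbp1l (-0.71), Has1 (-0.68), AC133451.2 (-0.65), Sh3bp1 (-0.63), Adhfe1 (-0.62), Muc2 (-0.61) and Prickle3 (-0.58). Has1 encodes a hyaluronan synthase. Its level was 57.1 and 60.0 after 10 min, 84.5 and 63.5 after 20 min, 59.1 and 92.1 after 40 min, and 65.4 and 85.0 after 60 min, so it changed little while the median gene gained. Muc2, a mucin gene, had 62.7 and 52.7 after 10 min, 149 and 135 after 20 min, 103 and 155 after 40 min, and 81.7 and 81.5 after 60 min. It was highest at 20 and 40 min, and both 60 min libraries lay below all 4 of these.

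Genes of cytoplasmic ribosomal proteins fell behind as a group of small shifts. Of 90 tested, 29 fell and 1 rose, against 10.5% of all genes lower and 25.6% higher. The median slope was -0.17, with 82 slopes below 0. With the GC adjustment 25 fell and 1 rose, and without the 20 min libraries 27 fell and 1 rose. The group's median was 0.12 above the median gene for 20 against 10 min and then -0.32 and -0.21 for the later steps, so the lag came after 20 min. Rps20, a protein of the small subunit, had 2846 and 2382 after 10 min, 4635 and 3761 after 20 min, 5101 and 6053 after 40 min, and a mean of 5289 after 60 min. Its level hardly differed between 40 and 60 min, and the slope was -0.40 ± 0.05 (SE; limma, adjusted p = 0.000224). Rpl37 (-0.33), Rps27 (-0.29) and Rps28 (-0.28) also fell, the call of Rps27 ending without either 10 min library (adjusted p = 0.071 and 0.2) or without library B of 60 min (0.11).

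Other genes of translation and metabolism moved the same way in part, and the stability of their mRNAs was not measured. Of 27 translation factor and housekeeping genes, 5 fell and 2 rose (median -0.06), among them Ftl1, the ferritin light chain (-0.32), Eef1a1, the elongation factor (-0.11), and Hsp90aa1, a chaperone (-0.13), with Actg1, a cytoplasmic actin, higher (0.21). Without the trend and robust estimation in limma Eef1a1 and Hsp90aa1 did not pass (adjusted p = 0.21 and 0.31). The slope of Eef1a1 turned to 0.0047 without the filter on low genes and that of Hsp90aa1 to 0.019 with quantile normalization, and Hsp90aa1 did not pass with a pseudocount of 5 either (limma, adjusted p = 0.053). On the gene-total scale 1 gene of this group rose and 15 fell. Of 24 glycolysis genes, 9 fell and 2 rose (median -0.13), and 10 fell with the GC adjustment, against 10.5% of all genes lower and 25.6% higher. On the gene-total scale 1 glycolysis gene rose and 16 fell. Eno2, an enolase, had 48.4 and 40.0 after 10 min, 85.2 and 69.8 after 20 min, 84.2 and 125 after 40 min, and 74.0 and 104 after 60 min, with a slope of -0.40. The lactate transporter genes parted: Slc16a3 fell (-0.36) and Slc16a1 rose (0.26). Tpi1, an enzyme of the glycolytic chain, fell (-0.31).

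Mitochondrially encoded RNA, made by a polymerase of its own inside mitochondria, trailed the nuclear median. Of 16 genes tested, 7 fell and none rose, with a median slope of -0.16, against 10.5% of all genes lower and 25.6% higher. With the GC adjustment 12 fell, with a median of -0.30. The group's medians were -0.30 for 20 against 10 min, -0.22 for 40 against 20 min and 0.19 for 60 against 40 min. mt-Nd6, a subunit of complex I, had 5652 and 4684 after 10 min, 7451 and 6896 after 20 min, 10715 and 12604 after 40 min, and a mean of 15009 after 60 min, a slope of -0.21. Its labelled RNA rose at every time, more slowly than the median gene until 40 min. The calls of mt-Nd6, mt-Nd3 (-0.21) and mt-Atp8 (-0.30) ended without library B of 10 min (adjusted p = 0.081, 0.15 and 0.088), those of mt-Nd3 and mt-Atp8 also without either 60 min library, and that of mt-Tp (-0.27) without library B of 60 min (0.1). mt-Atp8 lost its call without library B of 40 min as well.

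Few small RNA genes were called higher, beside 25.6% of all genes higher and 10.5% lower. Median exonic length was 129 bases for annotated small nucleolar RNA genes, 86 for microRNA genes and 3218 for all genes tested. Short genes collect fewer reads, so their shares of calls are not comparable with those of all genes. Of 170 genes annotated as small nucleolar RNAs, 25 fell (14.7%) and 12 rose (7.06%), with a median slope of -0.04 that turns to 0.02 with quantile normalization. In a smaller list of 48 such genes 12 fell (25%) and 4 rose (8.33%), with a median of -0.11. Of 109 microRNA genes 11 fell (10.1%), a share near that of all genes, and 4 rose (3.67%). Their median of -0.06 turns to 0.01 with quantile normalization. Most of these genes lie in introns, and reads of the host cannot be told from reads of the small RNA. Of 19 snoRNA host genes, 6 fell and 2 rose (median -0.06). Gas5, a noncoding host whose spliced RNA is known for its short life, had 1119 and 981 after 10 min, 1533 and 1442 after 20 min, 2213 and 3331 after 40 min, and a mean of 2701 after 60 min, a slope of -0.23. Zfas1 (-0.24) and Snhg8 (-0.30) fell too, while Nop56, a host that encodes a snoRNP protein, rose (0.19). Of 4 tested genes of spliceosomal and other small RNAs 2 fell, Rnu12 (-0.47) and Rny3 (-0.35). Single small RNA genes had few reads: Snord13 (-0.65) had levels of 9.68 to 35.2.

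Several regulators of transcription stood at the other end. The 15 genes that rose most by the naming rule were Trh (1.40), Id1 (1.23), Cabs1 (1.20), Olfr698 (1.03), Edn1 (0.96), Id3 (0.93), Tagap (0.91), Myc (0.90), Olfr366 (0.88), Cmtr2 (0.88), Lipo2 (0.86), Zfx (0.85), Olfr1426 (0.84), Mecom (0.81) and Tnfaip3 (0.80). Olfactory receptor genes (Olfr) have near-identical copies and are uncertain. The filter and the naming rule use the mean level over all 8 libraries. A gene low after 10 min can thus enter through its later levels, and its 10 min values rest on few reads. Id1 and Id3 encode inhibitors of basic helix-loop-helix factors that act downstream of BMP signals. Id1 had 5.60 and 2.11 after 10 min, 11.9 and 14.6 after 20 min, 71.7 and 90.9 after 40 min, and 117 and 198 after 60 min. No libraries of neighbouring times overlapped, and the slope was 1.23 ± 0.13 (SE; limma, adjusted p = 2.54e-06). Id3 had 19.4 and 4.21 after 10 min, 38.3 and 41.7 after 20 min, 137 and 160.0 after 40 min, and 205 and 224 after 60 min.

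Myc, the transcription factor gene, was low after 10 min and high after 60 min. Its level was 8.15 and 10.53 after 10 min, 48.2 and 22.9 after 20 min, 87.8 and 161 after 40 min, and 187 and 239 after 60 min. The slope of 0.90 ± 0.11 (SE; limma, adjusted p = 1.79e-05) had the same value with the GC adjustment. Cmtr2, which methylates the mRNA cap, had 38.2 and 31.6 after 10 min, 74.6 and 63.5 after 20 min, 299 and 424 after 40 min, and 509 and 773 after 60 min. Zfx, an X-linked zinc finger factor, had 273 and 154 after 10 min, 411 and 352 after 20 min, 1731 and 2456 after 40 min, and a mean of 3392 after 60 min. Zfx and Cmtr2 kept pace with the median gene to 20 min and gained on it at 40 and 60 min. Trh, the thyrotropin-releasing hormone gene, had 3.57 and 0 after 10 min, 19.1 and 16.7 after 20 min, 60.0 and 102 after 40 min, and 97.1 and 108 after 60 min.

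Immediate early genes, which signals switch on without new protein, rose in 13 of 26 cases and fell in 1, with a median slope of 0.16. With the GC adjustment 12 rose and 1 fell. Among all genes 25.6% rose, and 20.6% with the GC adjustment. Among 14401 protein-coding genes 4945 rose, and 3969 with the GC adjustment. Beside Myc, the serum response factor gene Srf (0.47), Klf6 (0.47) and the matricellular gene Ccn1 (0.45) rose. Srf had 156 and 139 after 10 min, 478 and 409 after 20 min, 1008 and 1648 after 40 min, and 1103 and 1478 after 60 min, and it changed by 0.64 log2 units relative to the median gene from 10 to 20 min, 0.59 from 20 to 40 min and -0.12 from 40 to 60 min. The gene that fell was Maff, a small MAF factor (-0.39), named after its value was seen; its call ended without library B of 60 min (adjusted p = 0.081). Among 16 genes of MAPK feedback and Ets targets, 9 rose and none fell (median 0.21), in cultures that all held a MEK inhibitor. Spry4, a feedback inhibitor of the pathway, had 4.08 and 0 after 10 min, 8.58 and 7.29 after 20 min, 19.7 and 54.6 after 40 min, and 79.8 and 114 after 60 min, with a slope of 1.26. Dusp5, a phosphatase (0.50), Lif, the cytokine (0.48), and Spred1 (0.41) rose as well.

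Targets of p53 rose together. Of 24 tested, 17 rose and none fell, with a median slope of 0.22, against 25.6% of all genes higher. With the GC adjustment 18 rose and without the 20 min libraries 17 did. Eda2r, a receptor gene, had 512 and 338 after 10 min, 916 and 723 after 20 min, 2777 and 4364 after 40 min, and a mean of 4600.1 after 60 min, a slope of 0.62. Plk2 (0.45), Trp53inp1 (0.43) and Btg2 (0.34) rose too.

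Genes of the pluripotent state were also above the median. Of 28 naive pluripotency genes, 18 rose and none fell (median 0.18), 16 rose and 1 fell with the GC adjustment, and 12 rose and 5 fell on the gene-total scale. Mycn (0.43), the LIF feedback gene Socs3 (0.35), Fgf4 (0.29) and the zinc finger factor Sall4 (0.28) rose. Fgf4, the growth factor of these cells, had 1814 and 1478 after 10 min, 2913 and 2726 after 20 min, 6114 and 9272 after 40 min, and a mean of 10933 after 60 min. Of 18 genes of the rare 2-cell-like state, 7 rose and none fell (median 0.16), and 4 rose with the GC adjustment (median 0.06). These counts are near the background, where 25.6% of all genes rose, and 20.6% with the GC adjustment. Of 14401 protein-coding genes 4945 rose, and 3969 with the GC adjustment. Pramel7 had 169 and 137 after 10 min, 387 and 352 after 20 min, 902 and 1525 after 40 min, and 1274 and 1667 after 60 min, a slope of 0.51. Tdpoz3 (0.64), Usp17le (0.45) and Zscan4b (0.32) rose but have near-identical copies; the call of Tdpoz3 ended without library A of 60 min (adjusted p = 0.059), and that of Zscan4b without it (0.085) or without library B of 10 min (0.097).

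Splicing, m6A and zinc finger genes rose more often than the background, where 25.6% of all genes rose, and 20.6% with the GC adjustment. Among 14401 protein-coding genes 4945 rose, and 3969 with the GC adjustment. In their lowest GC class these counts were 1649 and 1011 of 2880. Of 20 genes for SR proteins and CLK kinases, which control splice site choice, listed with Ccnl1, Ccnl2, Son and Ogt, 17 rose and none fell, all 20 slopes were above 0 and the median was 0.20. With the GC adjustment 13 rose and 1 fell. Son, a scaffold of nuclear speckles, had 3593 and 2599 after 10 min, 5476 and 5319 after 20 min, 14758 and 22918 after 40 min, and a mean of 24569 after 60 min, with a slope of 0.43. Clk4 (0.42), Srsf4 (0.34) and Ogt (0.28), which encodes an O-GlcNAc transferase, rose. Of 22 genes for writers, erasers and readers of m6A, 17 rose and none fell (median 0.19), and 14 rose and 2 fell with the GC adjustment. Ythdf3, a cytoplasmic reader, had 751 and 471 after 10 min, 1019 and 817 after 20 min, 2834 and 4406 after 40 min, and a mean of 4800.0 after 60 min, a slope of 0.45. Ythdc2 (0.36), the demethylase gene Alkbh5 (0.33) and Rbm15 (0.32), a cofactor of the methyltransferase, rose.

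Zinc finger genes named Zfp made up the largest group that rose. Of 348 tested, 227 rose and 4 fell, with a median slope of 0.23. The counts were 184 and 8 with the GC adjustment (median 0.15), 210 and 5 without the 20 min libraries, and 172 and 17 on the gene-total scale. Group medians were -0.13 for 20 against 10 min, 0.50 for 40 against 20 min and 0.20 for 60 against 40 min. The SR and CLK group had -0.12, 0.45 and 0.17 for the same steps, and the lowest GC class of protein-coding genes -0.17, 0.43 and 0.15. The median GC content was 43.8% for Zfp genes, 42.9% for SR and CLK genes, 44.6% for m6A genes and 48.8% for all genes tested. In the lowest GC class 1649 of 2880 protein-coding genes rose, and 1011 with the GC adjustment. Zfp759 had 24.5 and 21.1 after 10 min, 40.9 and 30.2 after 20 min, 151 and 228 after 40 min, and 217 and 337 after 60 min, with a slope of 0.67. Zfp433 (0.75) and Zfp658 (0.62) rose too, and Zfp677 (0.71), with levels of 0.509 to 33.9, lost its call without library A of 10 min (adjusted p = 0.087) or without either 60 min library (0.14 and 0.051).

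**Figure D4:**
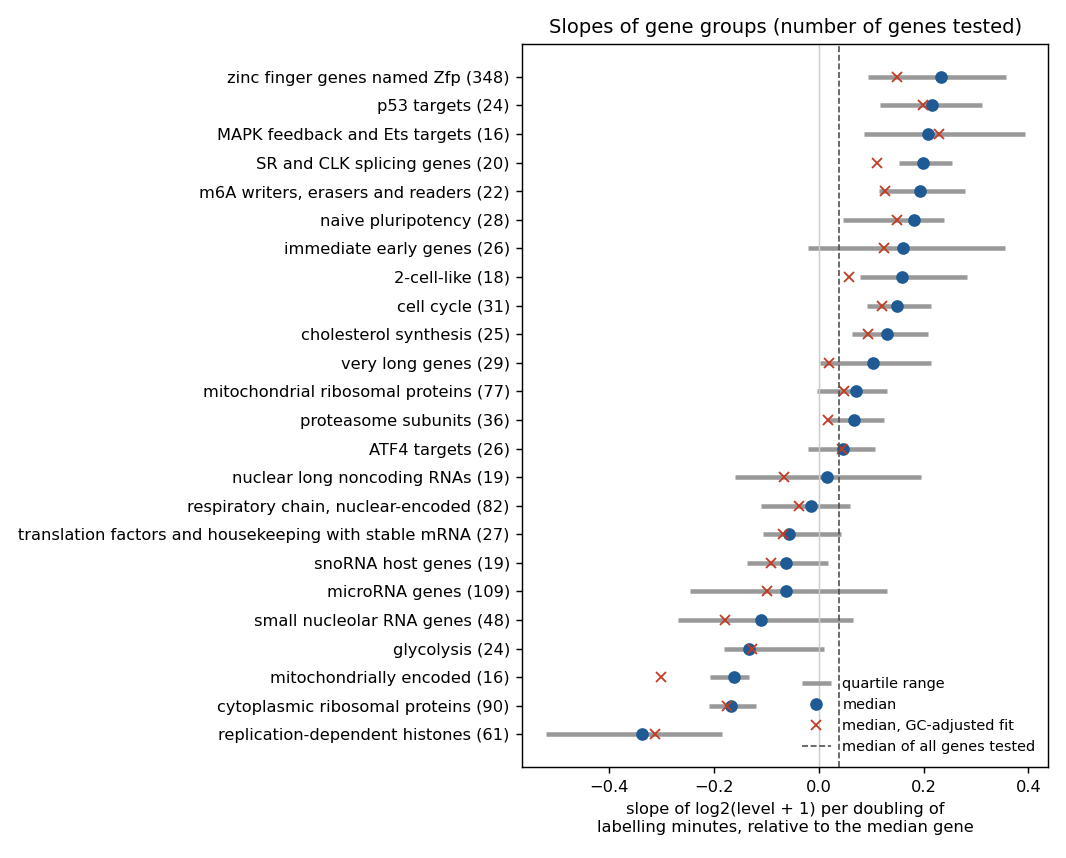
Median slope per doubling of labelling minutes relative to the median gene (circles), quartile range (bars) and median with the GC adjustment (crosses) for gene groups with at least 16 genes tested. Zfp genes lie highest at 0.23 and replication-dependent histones lowest at -0.34, and the dashed line marks the median of all genes tested, 0.04.

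Cell division genes rose more often than the background, and sterol genes did so before the GC adjustment. Of 31 cell cycle genes, 22 rose and none fell (median 0.15), 20 with the GC adjustment and 10 on the gene-total scale, where 1 fell. Mki67, the proliferation marker, had 3002 and 2263 after 10 min, 4605 and 4114 after 20 min, 10154 and 15830.0 after 40 min, and a mean of 15499 after 60 min, a slope of 0.25. The kinase gene Bub1 (0.29), the helicase subunit Mcm6 (0.24) and the cyclin gene Ccne2 (0.24) rose, though Ccne2 did not pass with the GC adjustment (adjusted p = 0.051). Of 25 cholesterol synthesis genes, 12 rose and 1 fell (median 0.13), against 7 and 1 with the GC adjustment and 5 and 5 on the gene-total scale. Of 14401 protein-coding genes, 4945 rose, 3969 with the GC adjustment and 2551 on the gene-total scale. The sterol counts on these other scales thus lay near that background. Stard4, a sterol carrier gene, rose (0.36), and Tm7sf2 fell (-0.27), a call that ended without library A of 60 min (adjusted p = 0.065).

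Several groups stayed near the median gene, and their counts stand beside 25.6% of all genes higher and 10.5% lower. Of 77 mitochondrial ribosomal protein genes, 22 rose and none fell (median 0.07), and the median is -0.03 on the gene-total scale, with 5 higher and 11 lower. Mrps18b had 124 and 118 after 10 min, 253 and 227 after 20 min, 629 and 880.3 after 40 min, and 699 and 1037 after 60 min, a slope of 0.36, and Mrpl3 (0.26), Mrpl37 (0.24) and Mrps9 (0.24) rose. Cytoplasmic and mitochondrial ribosomal protein genes thus had medians on opposite sides, a difference not tested as such. Of 36 proteasome genes, 10 rose and 1 fell (median 0.07, turning to -0.04 on the gene-total scale and -0.06 with quantile normalization); Psmd14 (0.23) and Psmd6 (0.21) rose and Psmb10 fell (-0.36). Of 82 nuclear genes of the respiratory chain, 12 rose and 5 fell (median -0.02), 7 rose and 9 fell with the GC adjustment, and 0 rose and 21 fell on the gene-total scale (median -0.12, and -0.10 with quantile normalization). Uqcrfs1 rose (0.25) and Ndufa1 fell (-0.35). Of these 5 genes only Psmd6 kept its call without each single library in turn.

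Of 26 targets of the stress factor ATF4, 4 rose and 6 fell (median 0.05, turning to -0.05 on the gene-total scale). Among all genes 25.6% rose and 10.5% fell. Sesn2 rose (0.25), while Nupr1 (-0.25), Chac1 (-0.28) and Cebpb (-0.35) fell, the calls of Chac1 and Cebpb ending without library A of 10 min, library B of 40 min or either 60 min library. Of 19 nuclear long noncoding RNAs, 6 rose and 5 fell (median 0.02, turning to -0.07 on the gene-total scale and with the GC adjustment). Tug1 rose (0.49), with 614 and 478 after 10 min, 957 and 802 after 20 min, 3170.3 and 4230.3 after 40 min, and a mean of 4606 after 60 min. Meg3, an imprinted RNA, fell (-0.29), with 2707 and 2232 after 10 min, 4459 and 5062 after 20 min, 4728 and 8617 after 40 min, and a mean of 6135 after 60 min. Tug1 gained on the median gene from 40 min on, while Meg3 trailed it. Of 29 very long genes, chosen because a polymerase needs more than the labelling time to cross them, 9 rose and 3 fell (median 0.10, turning to -0.01 with quantile normalization), and 3 rose and 4 fell with the GC adjustment.

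Of the steps between neighbouring times, that from 20 to 40 min had the most calls. Relative to the median gene, 185 genes (0.845%) were higher and 310 (1.42%) lower after 20 than after 10 min, and 3634 (16.6%) were higher and 735 (3.36%) lower after 40 than after 20 min. At 60 against 40 min 0 genes (0%) were higher and 0 (0%) lower by limma, with 1445 higher and 480 lower at an unadjusted p under 0.05. The last step is shorter than a doubling of minutes, and 2841 genes have a single value after 60 min, so the counts of the steps are not on equal terms. For the slope from 20 to 60 min minus that from 10 to 20 min, 2556 genes (11.7%) were higher and 583 (2.66%) lower. The balance of higher and lower genes depends on the scale. For 40 against 20 min, 1608 were higher and 1872 lower on the gene-total scale, and 1828 and 1448 with quantile normalization. With the GC adjustment 2020 were higher and 826 lower for 40 against 20 min, a step that uses the 20 min libraries, which stood apart in GC content. For the difference of slopes the counts were 1125 and 1684 on the gene-total scale and 1375 and 1096 with quantile normalization. They also hang on how the spread is estimated. Without robust estimation and a trend in limma they were 0 and 0, 836 and 171, and 0 and 0 for 20 against 10 min, 40 against 20 min and the difference of slopes. Leaving out single libraries gave 0 to 972 higher and 4 to 486 lower for 20 against 10 min and 1421 to 4240 higher and 282 to 1293 lower for 40 against 20 min.

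Genes with a late rise included Gtsf2, Neto2, Tmem106b and Mtcp1. Gtsf2 had 10.2 and 12.6 after 10 min, 7.92 and 11.5 after 20 min, 64.5 and 81.2 after 40 min, and 109.6 and 126 after 60 min. Neto2, an auxiliary subunit of kainate receptors, had 64.7 and 49.5 after 10 min, 80.5 and 47.9 after 20 min, 306 and 458 after 40 min, and 436 and 542 after 60 min. Both were flat to 20 min and then climbed, and their slopes differed by 2.70 and 2.00 between the late and the early interval. Genes with an early rise included Mt1, a metallothionein, with 52.99 and 31.6 after 10 min, 170.3 and 142 after 20 min, 185 and 275 after 40 min, and 194 and 224 after 60 min. Nckap5l had 52.99 and 32.7 after 10 min, 172 and 146 after 20 min, 105 and 155 after 40 min, and 99.99 and 149 after 60 min. Their slopes differed by -1.36 and -1.87 between the late and the early interval. Both 40 min libraries of Mt1 lay above both 20 min libraries, while neither later time of Nckap5l exceeded its highest 20 min library.

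Repeat families kept close to each other. Repeats were summed over the class and family named for each locus, and slopes are relative to the median family. Of 59 families tested with limma, 2 rose (3.39%) and 4 fell (6.78%), and all 59 rose on the spike-in scale. By steps, 0 were higher and 1 lower for 20 against 10 min, and 2 and 2 for 40 against 20 min. For 60 against 40 min 2 were higher and 0 lower. For the late minus the early slope 5 were higher and 0 lower, and 2 and 1 scaled to the repeat-read total. The large retrotransposon families held the middle: LINE/L1 had a slope of -0.01, SINE/B2 -0.01, SINE/Alu -0.01 and LTR/ERVK 0.02, each with an SE of 0.02. LINE/L1 levels were 1268450 and 1090890 after 10 min, 1879580 and 1837090 after 20 min, 3160210 and 4665630 after 40 min, and 3808730 and 5002380 after 60 min. From 10 to 60 min this growth was like that of the whole repeat table. Relative to the median family LINE/L1 trailed first and gained later, with steps of -0.26, 0.07 and 0.18 (SE 0.06 each). Scaled to the repeat-read total 13 families rose and 5 fell. Without library A of 10 min 9 rose and 7 fell, without B of 10 min 4 and 2 and without A of 20 min 6 rose, and 2 fell without B of 20 or of 60 min.

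The loci without a family name, listed as Unknown, had the larger slope of the 2 families that rose. Their summed level was 56854 and 40139 after 10 min, 84271 and 74153 after 20 min, 183104 and 269270.0 after 40 min, and 245450.0 and 325924 after 60 min, and the slope was 0.27 ± 0.02 (SE; limma, adjusted p = 4.01e-19). Of 1380 single Unknown loci tested, 33.6% rose and 0.58% fell, against 5.45% and 2.59% of all 281007 loci. The strongest locus held 2.43% of the level, so no single locus made the sum. The level was concentrated in space: 10 of 536 windows of 5 Mb held 50.8% of it, with 229 of 505 loci higher inside them and 235 of 875 elsewhere. The top windows were chr7:40000001-45000000 with 10.8% of the level, chr2:175000001-180000000 with 8.17% and chr13:65000001-70000000 with 7.99%, in the coordinates of the files, whose build per the submitters' processing notes is GRCm39.

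Several of the other families that passed rested on few loci or on few libraries. DNA/hAT-Ac rose by 0.24 ± 0.04 (SE; limma, adjusted p = 6.81e-09), with 33.7% of its level in 1 locus and a slope of 0.16 without it. DNA/hAT-Tip100 fell, with a slope of -0.15 that became 0.02 without the locus holding 66.6% of its level. The rRNA family fell, with a slope of -0.20 that became 0.03 without a mitochondrial locus holding 98.3%, and its call ended without library B of 10 min (adjusted p = 0.47), B of 20 min (0.051) or B of 60 min (0.19). The tRNA family fell with a slope of -0.14, and -0.11 without its top locus, and held its call without each library in turn. Its 181 tested loci had a median slope of 0.001 relative to the median locus, with 6.08% higher and 8.29% lower. The slope of the sum is relative to the median family instead, so it is not directly comparable with that of the loci. SINE/tRNA-RTE fell with a slope of -0.13, a call (adjusted p = 0.047) that ended without B of 10 min, B of 20 min or any 40 or 60 min library. Satellite repeats had a slope of -0.06 and did not pass (adjusted p = 0.061), with 13.9% of 1312 loci lower and 5.95% higher.

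**Figure D5:**
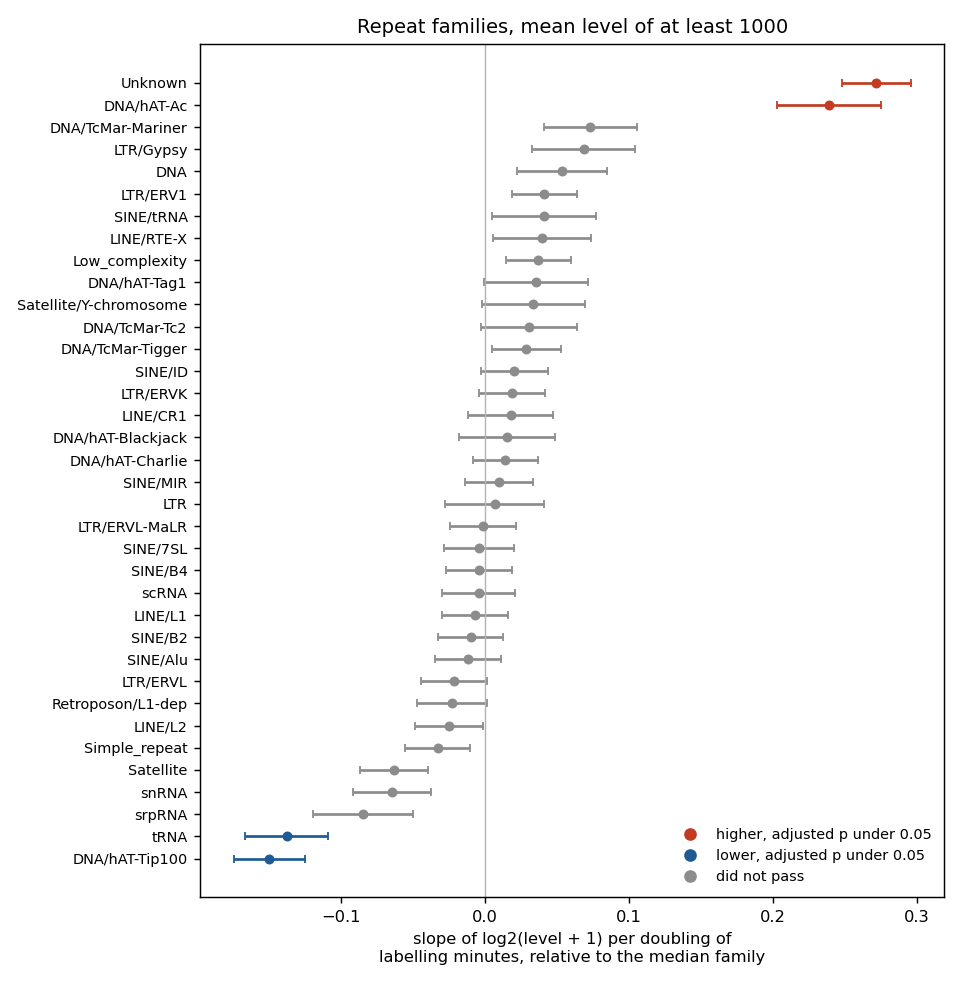
Slope per doubling of labelling minutes relative to the median family, with its SE as a bar, for the 36 repeat families with a mean level of at least 1000. Unknown loci and DNA/hAT-Ac lie highest at 0.27 and 0.24, tRNA and DNA/hAT-Tip100 lowest at -0.14 and -0.15, and the abundant LINE/L1, SINE/B2 and SINE/Alu lie near 0.

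Single loci parted by length within families. Of 281007 loci tested relative to the median locus, 15317 rose (5.45%) and 7269 fell (2.59%). Without library A of 10 min these counts were 40869 and 20939, without A or B of 40 min 7374 and 3406 or 7327 and 3401, and without A or B of 60 min 3334 and 1547 or 3002 and 1572. LINE/L1 loci over 5 kb, the length of elements that can hold both reading frames, had a median slope of -0.06, with 2.65% higher, and their steps were -0.22, -0.06 and 0.17. L1 loci of 1 to 2 kb had a median of 0.05 with 10.1% higher. LTR/ERVK loci of 2 to 5 kb had a median of 0.16 with 20.3% higher, while those over 5 kb had -0.04 with 7.17% higher. LTR/ERV1 loci over 5 kb had 0.21 with 21.5% of 93 higher and none lower. LTR/ERVL loci over 5 kb had a median of -0.12 with 0.662% higher. Longer loci collect more reads, so the share that passes a threshold is not comparable between lengths, and the medians are the description. Full-length copies of a family are similar, and the treatment of reads that match several places is not given in the sources used here.

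Among loci whose mean level reached 50, the largest rise was that of an LTR/ERV1 locus at chr14:19621117-19621732, with a slope of 1.88 ± 0.23 (SE). Its level was 3.57 and 2.11 after 10 min, 0 and 7.29 after 20 min, 125 and 275 after 40 min, and 169 and 185 after 60 min. The rise came between 20 and 40 min, and the 10 min values rest on 7 and 2 reads. Mean levels are over all 8 libraries, so a locus low at first can reach 50 through its later levels. An LTR/ERVK locus at chr3:91066802-91068345 had 10.7 and 4.21 after 10 min, 27.7 and 13.5 after 20 min, 121 and 156 after 40 min, and 187 and 243 after 60 min. All 10 loci with the largest rise were LINE or LTR elements: 6 LINE/L1, 2 LTR/ERVK, 1 LTR/ERV1 and 1 LTR/ERVL. The 10 with the largest fall were 4 simple repeats, 5 satellites and 1 LTR/ERVK locus. The lowest was a simple repeat at chr1:72249883-72249953, with 106 and 137 after 10 min, 147 and 147 after 20 min, 48.4 and 50.9 after 40 min, and 49.0 and 60.6 after 60 min, a slope of -1.31. A satellite locus at chr19:3684288-3684738 had 56.6 and 73.7 after 10 min, 91.8 and 89.6 after 20 min, 43.9 and 49.7 after 40 min, and 26.0 and 43.1 after 60 min. Both had lower levels after 40 and 60 min than after 10 min, with no overlap, while the median gene and every family gained from 10 to 60 min.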

How the data were processed

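EU-labelled RNA was measured in 8 WT libraries, 2 at each of 4 labelling times. The authors deposited 1 table of genes and 1 of repeat loci, whose values are log2 ratios of each time to 10 min after scaling to spike-in reads with both replicates combined, per the file headers and values. Per the submitters' processing notes, the tools were HISAT2, SAMtools and Picard and the build GRCm39. Versions and the read counter were not given in the sources used here. Of both tables together, 12 columns of other genotypes stayed out.

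Each deposited value equals a ratio of whole reads over spike-in reads, times 40000, plus 1, and solving for whole numbers returned the reads of the 8 libraries for every line with a value that is not 0. On simulated data, 500 genes at each depth, every sum over a time was right, as were at least 99.76% of the splits between both libraries taken as clear. A split counted as clear where it was the only one possible, or lay within 0.6 log2 units of the pair's median ratio with the next at least 0.8 away. For the others the sum was shared by that ratio, which understates their spread. Reads were scaled to 11912.5 spike-in reads (levels). No interval is computed from reads; it would leave out all but counting error.

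Features whose mean level reached 10, with reads in 6 or more libraries, were tested as log2(level + 1) in limma 3.58.1 (R 4.3.3), using 1 coefficient per time, moderated variances (trend and robust) and Benjamini-Hochberg adjustment at 0.05. Slopes per doubling of minutes were taken relative to the median tested gene, family or locus of each library and on the spike-in scale. Totals were tested by exact two-sided permutation over the libraries. Symbols, biotypes, spans and GC content came from GENCODE M21 (GRCm38), matched for 38304 of 41013 gene IDs; no gene coordinates are given. The alternatives were other scales, pseudocounts, filters, a linear time axis, plain moderation, each library left out, and, chosen after seeing the data, a GC adjustment (lowess, span 0.3) and a fit without the 20 min libraries. The named genes are the 15 with the largest slope in each direction among those passing, whose mean level reached 50, with both 60 min libraries on the same side of both 10 min libraries and no predicted-gene symbol. The rule adds examples of the 10 with the largest difference of slopes in each direction, up to 4 passing genes per group, and loci by the same idea. The groups of genes and the libraries described were chosen with earlier results of these data known.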

Additional observations from a re-analysis of the deposited data

How the results depend on the processing

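No paired analysis was possible because the recovered libraries carry no replicate number. The slopes of both totals and of their ratio kept their direction and side of the threshold under every alternative run, with 0.85 to 0.99 for the gene total, 0.72 to 0.86 for the repeat total and 0.13 for the ratio when single libraries were left out.

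For the trend of genes, main counts of 5608 higher and 2308 lower became 20873 and 2 on the spike-in scale, 9295 and 4739 without the filter, 2918 and 4428 on the gene-total scale, and 2838 to 6186 and 967 to 2716 when a library was left out. Genes higher numbered 3723 from a mean level of 50 up and 3300 with quantile normalization, and genes lower 3783 with a pseudocount of 5. Genes higher and lower after 20 against 10 min (185 and 310) became 11311 and 5 on the spike-in scale, 0 and 0 with plain moderation, 74 and 105 without the filter, 11 and 21 with the GC adjustment, and 0 to 972 and 4 to 486 with a library left out; 280 were higher with a pseudocount of 5, and 501 lower from a mean level of 50 up and 106 without genes of unclear split. Those after 40 against 20 min (3634 and 735) became 12456 and 2 on the spike-in scale, 836 and 171 with plain moderation, 5944 and 412 without the filter, and 1421 to 4240 and 282 to 1293 with a library left out; 1920 were higher without genes of unclear split, 2020 with the GC adjustment, and 1307 lower with a mean level of at least 50. Those after 60 against 40 min (0 and 0) became 7 higher without the filter, 1 higher without genes of unclear split, 1 and 1 with the GC adjustment, and 0 to 2 higher with a library left out. For the difference of slopes (2556 and 583) the counts were 0 and 0 on the spike-in scale and with plain moderation, 1113 and 356 without genes of unclear split, 921 and 213 with the GC adjustment, and 489 to 2840 and 98 to 1188 with a library left out, with 161 lower without the filter and 945 lower with a mean level of at least 50.

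Repeat families higher and lower (2 and 4) became 59 and 0 on the spike-in scale, 13 higher on the repeat-total scale, 2 lower with plain moderation, and 2 to 9 and 2 to 7 with a library left out. Loci (15317 and 7269) became 255239 and 65 on the spike-in scale, 7359 and 3849 from a mean level of 50 up, 3829 lower without the 20 min libraries, and 3002 to 40869 and 1547 to 20939 with a library left out. The cause of these shifts was not tested, beyond the fewer features tested under a stricter filter and the genes lost with a 60 min library. Reads limit the earliest time most, where the median gene had levels of 54.0 and 41.1.

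Of 120 single genes and families, 87 could be run without each library, of which 69 held their call every time. The other 33 had no value without at least 1 library, and 31 of them held their call in the fits that could be run. In these fits 0 reversed. On the spike-in scale 43 that fell relative to the median had a slope above 0, since that scale keeps the growth all genes share. Slopes there were 0.076 for Hist1h3f, 0.10 for Hist1h4i, 0.11 for Hist1h2bg, 0.17 for Hist1h2bm, 0.23 for Hist1h2bk, 0.10 for Shcbp1l, 0.12 for Has1, 0.16 for AC133451.2, 0.17 for Sh3bp1, 0.19 for Adhfe1, 0.20 for Muc2, 0.23 for Prickle3, 0.16 for Snord13 and 0.42 for Maff. They were 0.41 for Rps20, 0.47 for Rpl37, 0.51 for Rps27, 0.53 for Rps28, 0.49 for Ftl1, 0.69 for Eef1a1, 0.67 for Hsp90aa1, 0.60 for mt-Nd6, 0.60 for mt-Nd3, 0.51 for mt-Atp8 and 0.54 for mt-Tp. They were 0.40 for Eno2, 0.45 for Slc16a3, 0.50 for Tpi1, 0.51 for Snhg8, 0.56 for Zfas1, 0.58 for Gas5, 0.52 for Meg3, 0.54 for Tm7sf2, 0.44 for Psmb10, 0.46 for Ndufa1, 0.53 for Chac1, 0.56 for Nupr1, 0.46 for Cebpb and 0.52 for Nckap5l. Families had 0.63 for DNA/hAT-Tip100, 0.66 for SINE/tRNA-RTE, 0.58 for rRNA and 0.65 for tRNA. Eef1a1 turned to 0.0047 without the filter, Hsp90aa1 to 0.019 with quantile normalization and Mt1 to -0.0057 on the gene-total scale.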
